A study of Mus musculus with 6 samples.

Results

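The genes described here, 10 in number and taken by symbol, belong to the p53 pathway and were measured in GL261, a mouse glioma cell line: Trp53, which encodes p53, and Mdm2, Mdm4, Cdkn1a, Ccng1, Bbc3, Phlda3, Gdf15, Eda2r and Sesn1. They are 10 of 58828 genes in the transcript models. A mean of 1 TPM (a length-corrected share of all transcripts) or more was required for a test, which 15557 genes met, 9 of these 10 among them. Total RNA was taken 4 h after sodium chloride (1 uM per the labels, 3 libraries) or after sodium propionate, a short-chain fatty acid salt (1 uM, 3 libraries). The dose is given as the labels write it, and its unit could not be checked from the files. All libraries came from the same line, and chloride served as the control salt. The sample titles number the chloride libraries 1, 2, 3 and the propionate libraries 1, 4, 5, and values below keep that order. No label states that they were separate cultures, so the spread used in every p-value may be technical. Levels are TPM divided by 1 factor per library (scaled TPM). Differences are propionate minus chloride on the log2(scaled TPM + 1) scale, tested with limma and Benjamini-Hochberg adjustment over all genes tested. Intervals given for a fold are of scaled TPM + 1, so they are narrower than those of TPM itself, most of all for low genes.

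p53 is a transcription factor that is kept low because Mdm2, a ubiquitin ligase, marks it for destruction, and Mdm4 (MdmX) binds and blocks it. When DNA damage or other stress frees p53, it binds pairs of decamer elements and switches on genes that stop the cell cycle, start cell death or limit stress, and it switches on Mdm2, which closes the loop. Much of this control acts on the p53 protein, which RNA does not measure. GL261 has been described as carrying a point mutation in Trp53, and the sequence of the transcripts was not examined here.

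No difference between the salts passed the test for any of the 9 measured genes. With limma, 0 of 9 had an adjusted p under 0.05, and their adjusted p-values ran from 0.916 to 0.988. Over all genes tested, 0.00643% were called higher, a single gene (Gm17201, an antisense transcript listed at 0 in the chloride libraries), and 0.0% were called lower. At an unadjusted p under 0.05 the count was also 0 of 9, against 5.09% of all genes. Groups without overlap were found for 0 of 9, against 5.27% of all genes with propionate higher and 6.49% with propionate lower. By sign 7 were higher and 2 lower after propionate, against 8061 higher and 7496 lower over all genes tested. The median difference of the 9 was 0.04, against 0.01 over all genes tested. The split by sign depended on the scaling: with TPM as deposited only Phlda3 (0.0119) and Gdf15 (0.0444) were higher. The standard error had a median of 0.11 over the 9 genes and over all genes alike. Limma draws each standard error toward that of genes of like level, so this likeness is partly built in. In bulk RNA, fewer expressing cells and less RNA per cell cannot be told apart. Of the 9, 8 changed sign under at least 1 of up to 15 alternative settings, and the lowest adjusted p under any of them was 0.609.

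The genes spanned a wide range of levels and kept it under both salts. Mdm2 was the most abundant per length, with a mean of 86.6 ± 5.50 scaled TPM (SD, n = 6), followed by Phlda3 at 55.7 ± 5.13. Ccng1 (32.2 ± 2.103), Mdm4 (30.9 ± 4.44) and Trp53 (29.9 ± 3.98) could not be ordered, because their ranges over libraries overlapped. Cdkn1a came next at 21.5 ± 2.06, below Trp53 in 6 of 6 libraries although the ranges over libraries overlapped. Gdf15 (8.29 ± 1.23) and Sesn1 (6.26 ± 0.58) overlapped each other and lay above Bbc3 at 2.66 ± 0.37. Eda2r was listed at 0 in 5 libraries. The highest library exceeded the lowest by 1.18-fold for Mdm2 and by 1.54-fold for Gdf15, the extremes of the 9 genes.

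**Figure D1:**
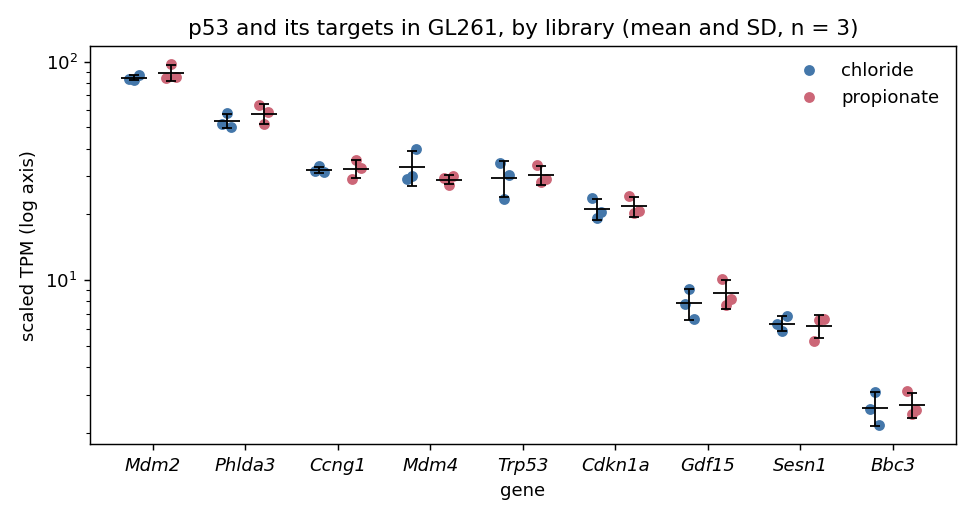
Scaled TPM (log axis) of the 9 measured genes in each library, with 3 points per salt, the mean as a horizontal bar and the SD as whiskers. The chloride and propionate points overlap for each of the 9 genes, and the order runs from Mdm2 near 86.6 to Bbc3 near 2.66 scaled TPM.

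Trp53 stood at 34.5, 23.6 and 30.4 scaled TPM in the chloride libraries and at 33.6, 28.0 and 29.0 in the propionate libraries. The lowest library was chloride 2 and the highest chloride 1, so the chloride libraries enclosed the propionate libraries. The difference was 0.04 (SE 0.14, limma adjusted p = 0.975), and its 95% interval, -0.29 to 0.38, holds folds of 0.817 to 1.30. Without chloride 2 the difference was -0.10.

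A usual and an alternative form of the p53 carboxyl terminus were seen in the models. The usual form uses an acceptor that makes a protein of 390 residues (Trp53-203), and the alternative form uses an acceptor 96 bases upstream, which brings an early stop codon and, from the same start codon, a protein of 381 residues (Trp53-206). Alternative splicing of the mouse p53 terminus is long known, and the usual terminus is a basic regulatory region that the alternative form replaces. The coding parts of both last exons are shown, with the stop codon in capitals. They lie on the plus strand of GRCm38 (mm10) at chr11:69591350-69591431 for the usual exon and chr11:69591254-69591308 for the alternative one.
Trp53 usual exon 11: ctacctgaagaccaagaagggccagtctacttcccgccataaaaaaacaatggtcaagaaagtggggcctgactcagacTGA
Trp53 alternative exon 11: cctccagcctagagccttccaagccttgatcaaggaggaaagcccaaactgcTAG

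The usual form was the larger in all 6 libraries. Trp53-203 stood at 24.2, 12.5 and 18.9 scaled TPM in the chloride libraries and at 28.7, 18.96 and 19.3 in the propionate libraries. The alternative exon (Trp53-202 and Trp53-206 together) stood at 7.18, 8.06 and 7.71 scaled TPM under chloride and at 0.08, 6.49 and 7.78 under propionate. Propionate 1 thus stood apart, with the alternative exon at 0.29% of the TPM ending in either exon, while the other libraries lay between 22.9% and 39.1%. The mean share was 30.3% ± 8.23 (SD, n = 3) under chloride and 18.2% ± 15.6 under propionate (two-sided exact permutation p = 0.4, where 3 against 3 can reach no less than 0.1). An assembled model that runs on from Trp53 exon 10 into the neighbouring locus held 0.77 to 3.93 scaled TPM.

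Mdm2, the ligase and itself a p53 target, stood at 83.5, 82.6 and 87.0 scaled TPM in the chloride libraries and at 84.5, 97.4 and 84.6 in the propionate libraries. Propionate 4 was the highest and the other 5 libraries lay within 82.6 to 87.0. The difference was 0.07 (SE 0.07, limma adjusted p = 0.932), with a 95% interval for the fold of 0.934 to 1.18. The division of this total between models differed mainly in propionate 4. Counted over reference transcripts alone, Mdm2 stood at 63.9, 60.6 and 76.5 scaled TPM under chloride and at 60.1, 35.2 and 68.1 under propionate, and the difference became -0.35 (limma adjusted p = 0.942). The remaining part was in 1 assembled model without exon 3 (counted from the 5' end of Mdm2-201), which held 19.6, 22.004 and 10.4 scaled TPM under chloride and 24.4, 62.2 and 16.6 under propionate. The groups of this model overlapped (limma adjusted p = 0.862 over transcripts).

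Mdm2 exon 3 is shown because it carries the start codon of the full-length protein of 489 residues, in capitals. It lies at chr10:117709700-117709784 on the minus strand of GRCm38. In GENCODE M21, Mdm2-202 has its start codon in exon 4 instead and encodes 440 residues. A shorter Mdm2 protein from a later start codon is known to lack the amino-terminal part that contacts p53.
Mdm2 exon 3: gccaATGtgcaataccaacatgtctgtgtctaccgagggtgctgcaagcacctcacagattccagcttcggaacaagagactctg

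Models without exon 3 held 26.1%, 30.4% and 13.7% of the spanning Mdm2 TPM in the chloride libraries. They held 30.7%, 67.2% and 20.96% in the propionate libraries. Only propionate 4 exceeded 31%, and the groups overlapped (23.4% ± 8.67 against 39.6% ± 24.4, exact permutation p = 0.4). The models counted as having exon 3 include Mdm2-202 (440 residues) and Mdm2-209 (162 residues). The remaining share is therefore not that of transcripts for the full-length protein. The exon lines of the files gave a second view: the coverage of exon 3, summed over models, relative to the mean of exons 2 and 4. It was 73.0%, 79.8% and 106% under chloride and 67.1%, 78.7% and 78.4% under propionate. By that measure propionate 4 lay among the other libraries, and the highest value was in chloride 3. Summed over models, the coverage of exon 3 thus did not show the shift seen between whole models in propionate 4.

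Other Mdm2 models were also divided unevenly. Mdm2-201, the full-length coding transcript, ranged from 5.71 scaled TPM in propionate 4 to 50.04 in propionate 5. Mdm2-202 ranged from 0.48 in chloride 3 to 23.3 in chloride 2. Mdm2-209, which starts at exon 2 and is annotated as a target of nonsense-mediated decay, was listed at 0 in chloride 2, propionate 1 and propionate 5 and at 10.3, 27.2 and 13.97 in chloride 1, chloride 3 and propionate 4. Mdm2 has an upstream promoter and a second one inside intron 1, which is the one known to answer p53. Among reference transcripts, those that start at the upstream exon held 77.8% ± 16.5 of Mdm2 TPM under chloride and 81.0% ± 26.5 under propionate. Those that start at or just before exon 2 held 20.1% ± 16.4 and 16.7% ± 26.0 (exact permutation p = 0.8 for both), with a range of 1.26% to 46.6% over libraries. With the assembled models counted, the starts at exon 2 held 16.8% ± 14.9 and 6.45% ± 9.01 (exact permutation p = 0.5), so the size of the difference depended on them, and the groups overlapped either way.

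Mdm4, the partner of Mdm2, stood at 29.1, 30.0 and 39.7 scaled TPM in the chloride libraries and at 29.4, 27.3 and 29.9 in the propionate libraries. Chloride 3 lay above the other 5 libraries, which fell within 27.3 to 30.0. The difference was -0.17 (SE 0.12, limma adjusted p = 0.916), the largest in size of the 9 genes and the one whose sign held under all 15 alternatives. With assembled models counted, this difference rested on chloride 3, without which it was -0.03. It was -0.05 in the 4 libraries other than chloride 3 and propionate 1. Its 95% interval for the fold was 0.728 to 1.08. Over reference transcripts alone, Mdm4 stood at 23.5, 23.4 and 24.5 scaled TPM under chloride and at 16.9, 18.7 and 22.9 under propionate. Those groups did not overlap, and the difference was -0.29 (limma adjusted p = 0.942).

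Mdm4 exon 6 (counted in Mdm4-210) is shown because its inclusion is known to decide between the full-length protein and a short form. It is 68 bases long, not a multiple of 3, wholly coding, and lies at chr1:133004654-133004721 on the minus strand of GRCm38. In GENCODE M21, Mdm4-210 with the exon encodes 489 residues and Mdm4-214 without it encodes 128, with the stop codon in the next exon and an annotation of nonsense-mediated decay.
Mdm4 exon 6: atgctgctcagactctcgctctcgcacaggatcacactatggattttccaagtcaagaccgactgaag

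Much of the Mdm4 RNA was assigned to models without exon 6, namely Mdm4-214 and 2 assembled models. One of the assembled models also lacks exons 3, 4 and 5, so the share below is not that of skipping exon 6 alone. That model held 1.31, 1.24 and 7.19 scaled TPM under chloride and 6.97, 4.67 and 4.26 under propionate. Together the models without exon 6 held 30.5%, 45.3% and 98.0% of the spanning TPM in the chloride libraries and 95.7%, 45.5% and 49.6% in the propionate libraries. Chloride 3 and propionate 1 were alike and apart from the rest, one in each group, and the group means were 57.9% ± 35.5 and 63.6% ± 27.9 (exact permutation p = 0.7). In those libraries Mdm4-210 was listed at 0.00 and 0.01 scaled TPM, against 8.29 to 13.97 in the other 4. The same pair had fewer transcripts with coverage, 71452 and 71192, against 81178 to 82370 in the others; what part this plays was not tested. The coverage of exon 6, relative to the mean of exons 5 and 7, was low in all libraries: 31.0%, 33.2% and 24.5% under chloride and 13.4%, 24.4% and 31.8% under propionate (exact permutation p = 0.4). Here propionate 1 was the lowest, while chloride 3 lay beside propionate 4. The adjacent exons also count models that do not span exon 6, which lowers this percent in every library. Among them are the retained intron forms Mdm4-209 and Mdm4-211, which start beside exon 6 and held 3.05 to 6.37 scaled TPM together. With that limit, low relative coverage of exon 6 was shared by both salts. Its near absence from whole models in chloride 3 was not seen in the exon's own coverage.

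**Figure D2:**
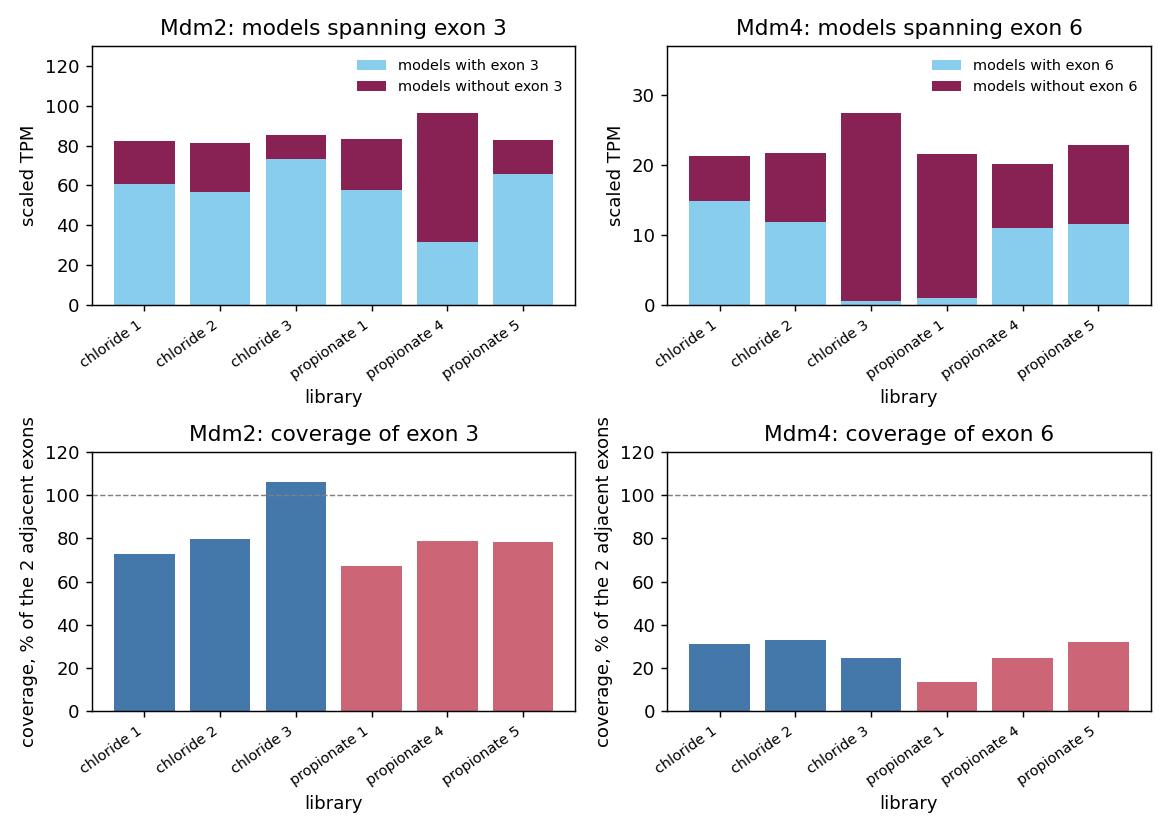
Upper panels show scaled TPM in each library of the models with (light) and without (dark) Mdm2 exon 3 and Mdm4 exon 6, and lower panels show the summed coverage of the same exon as a percent of the mean of its 2 adjacent exons (blue chloride, red propionate, dashed line at 100%). Propionate 4 stands out for Mdm2 and chloride 3 and propionate 1 for Mdm4 in the upper panels, while the lower panels run from 67.1% to 106% and from 13.4% to 33.2%.

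Cdkn1a encodes p21, the inhibitor of cyclin-dependent kinases through which p53 halts the cycle. It stood at 23.8, 19.2 and 20.6 scaled TPM in the chloride libraries and at 24.3, 20.2 and 20.7 in the propionate libraries. The groups overlapped almost wholly, with a difference of 0.04 (SE 0.10, limma adjusted p = 0.971) and a 95% interval for the fold of 0.864 to 1.22. Nearly all of it came from 1 start site. Transcripts from the main start (Cdkn1a-201 and Cdkn1a-205) held 95.6% ± 1.90 of Cdkn1a TPM under chloride and 92.7% ± 2.41 under propionate (exact permutation p = 0.2). A start 2790 bases upstream (Cdkn1a-202 and Cdkn1a-204) held at most 0.17 scaled TPM in any library, and a start downstream of the main one, Cdkn1a-203, held 0.44, 1.14 and 0.89 under chloride and 1.66, 0.88 and 2.05 under propionate. All 4 coding transcripts encode the same 159 residues.

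The promoter windows of the genes (RefSeq, GRCm38.p6, from 250 bases before to 50 after a start site, 16 windows for all 10 genes) were searched for the p53 element. The search took 2 decamers separated by up to 13 bases, with C and G kept in each core, and needs no separate search of the other strand because the element is its own reverse complement. An element with no other letter off was found in 1 of the 16 windows, against 0.0731% of 32851 windows of all genes. It lies in the upstream Cdkn1a window and has a spacer of 12 bases, while the pair without a spacer there is 1 letter off. Elements with at most 1 letter off were in 2 of 16 windows (0.627% of all), and with at most 2 in 3 of 16 (4.09% of all). The 10 genes were taken for their place in the p53 pathway, so these shares are a description and not a test. The upstream Cdkn1a window and the Ccng1 window carry the closest matches and are shown, with the decamers in capitals. The Cdkn1a stretch, chr17:29090829-29090968 on the plus strand, ends before the upstream start that was nearly silent here, and its last decamer ends 2822 bases before the main start. The Ccng1 stretch is chr11:40755377-40755516 on the minus strand. The Sesn1 window with 2 letters off is at its downstream start.
Cdkn1a promoter: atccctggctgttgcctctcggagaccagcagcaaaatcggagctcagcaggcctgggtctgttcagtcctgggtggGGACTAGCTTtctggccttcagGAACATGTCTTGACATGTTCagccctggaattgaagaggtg
Ccng1 promoter: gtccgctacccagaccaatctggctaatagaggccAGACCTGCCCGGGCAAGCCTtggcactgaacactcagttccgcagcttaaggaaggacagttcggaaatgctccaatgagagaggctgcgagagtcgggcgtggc

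Ccng1, cyclin G1, is a p53 target that feeds back on Mdm2 through protein phosphatase 2A. It stood at 31.7, 33.2 and 31.1 scaled TPM in the chloride libraries and at 29.2, 35.5 and 32.6 in the propionate libraries. The propionate libraries held both the lowest and the highest value, and the difference was 0.01 (SE 0.08, limma adjusted p = 0.988), the smallest of the 9. Ccng1-201 made up 90.0% to 95.4% of it in every library, and the rest was an assembled model without exon 4.

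Bbc3 encodes Puma, which sets off mitochondrial cell death. It was the lowest of the 9 genes, at 2.57, 3.10 and 2.18 scaled TPM in the chloride libraries and at 3.11, 2.44 and 2.56 in the propionate libraries. The groups overlapped, with a difference of 0.04 (SE 0.14, limma adjusted p = 0.980) and a 95% interval of 0.809 to 1.30 for the fold of scaled TPM + 1. It rested on little sequence, 17.6 to 20.9 kb of assigned bases per library, against 1109 to 1528 kb for Mdm2. Its main coding transcript, Bbc3-201, held 52.4%, 23.9% and 99.6% of Bbc3 TPM under chloride and 9.76%, 60.2% and 28.3% under propionate. The rest was almost all Bbc3-203, a retained intron form that starts downstream. The mean Bbc3-201 share was 58.6% ± 38.3 and 32.8% ± 25.5 (exact permutation p = 0.5), with overlapping groups.

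Phlda3 encodes a small protein that keeps the kinase Akt from the membrane and so favours cell death. It stood at 52.1, 58.2 and 50.4 scaled TPM in the chloride libraries and at 63.4, 51.6 and 58.6 in the propionate libraries. Propionate 1 was the highest, but propionate 4 lay below chloride 1. The difference was 0.11 (SE 0.09, limma adjusted p = 0.931), with a 95% interval for the fold of 0.925 to 1.25. Phlda3-201 held 84.1%, 92.7% and 85.8% under chloride and 92.1%, 72.7% and 89.4% under propionate, and 3 assembled models with an upstream first exon held most of the rest.

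Eda2r, a death-linked receptor of the tumour necrosis factor family, is a strong p53 target in other tissues. It was listed at 0 in 5 libraries and at 0.05 scaled TPM in chloride 1, so it was below the filter and no difference was computed. A listed 0 in these files can also be a failed estimate.

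Gdf15, a secreted stress cytokine, stood at 7.82, 9.15 and 6.64 scaled TPM in the chloride libraries and at 10.2, 7.73 and 8.20 in the propionate libraries. It had the second largest difference in size, 0.13 (SE 0.14, limma adjusted p = 0.934), but chloride 2 exceeded both propionate 4 and propionate 5. Its 95% interval for the fold of scaled TPM + 1 was 0.870 to 1.38, the highest upper bound of the 9 genes on that scale. Gdf15-201 held at least 98.6% of it in every library.

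Sesn1, a sestrin that restrains growth signalling through mTORC1, stood at 6.28, 5.89 and 6.86 scaled TPM in the chloride libraries and at 5.30, 6.62 and 6.64 in the propionate libraries. Propionate 1 was the lowest, and the difference was -0.03 (SE 0.11, limma adjusted p = 0.975). The longer coding transcript Sesn1-202 (551 residues) stood at 4.90, 5.10 and 6.76 under chloride and at 5.17, 4.70 and 5.28 under propionate. Sesn1-201 (492 residues), from the downstream start whose window holds the near match to the p53 element, stood at 1.38, 0.72 and 0.05 under chloride and at 0.04, 1.84 and 1.33 under propionate. It was lowest in chloride 3 and propionate 1, the same pair as for Mdm4. Its share was 11.6% ± 10.6 under chloride and 16.2% ± 13.9 under propionate (exact permutation p = 0.8).

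**Figure D3:**
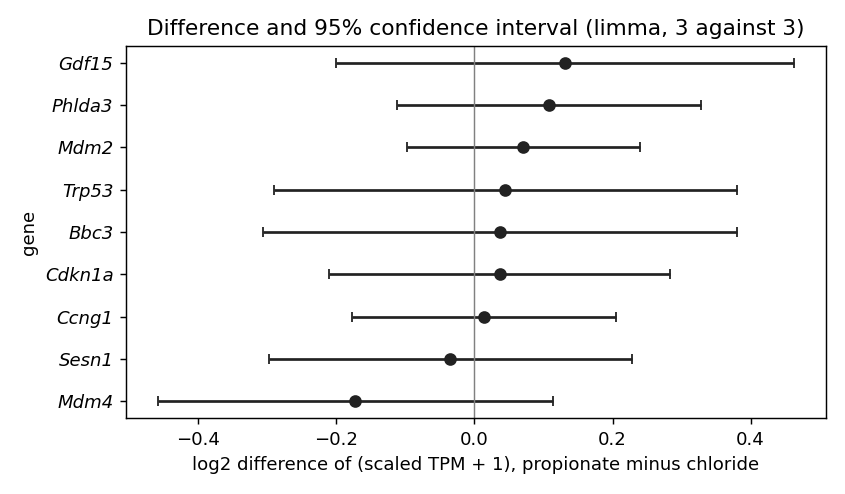
Log2 difference of (scaled TPM + 1), propionate minus chloride, for the 9 measured genes, with points for the limma estimate and bars for its 95% confidence interval. Each interval holds 0, and the estimates run from -0.17 for Mdm4 to 0.13 for Gdf15.

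Single transcripts gave no call either. Of the 10 genes' transcripts, 31 averaged 1 TPM or more, of which 12 were higher and 19 lower by sign after propionate. With limma over 35755 transcripts, 0 of 31 had an adjusted p under 0.05 (the lowest was 0.862) and 0 had an unadjusted p under 0.05, against 0.0364% and 4.58% of all transcripts tested. None of the 31 had groups without overlap, against 12.3% of all transcripts tested, and 4 had a listed 0 in some library.

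**Figure D4:**
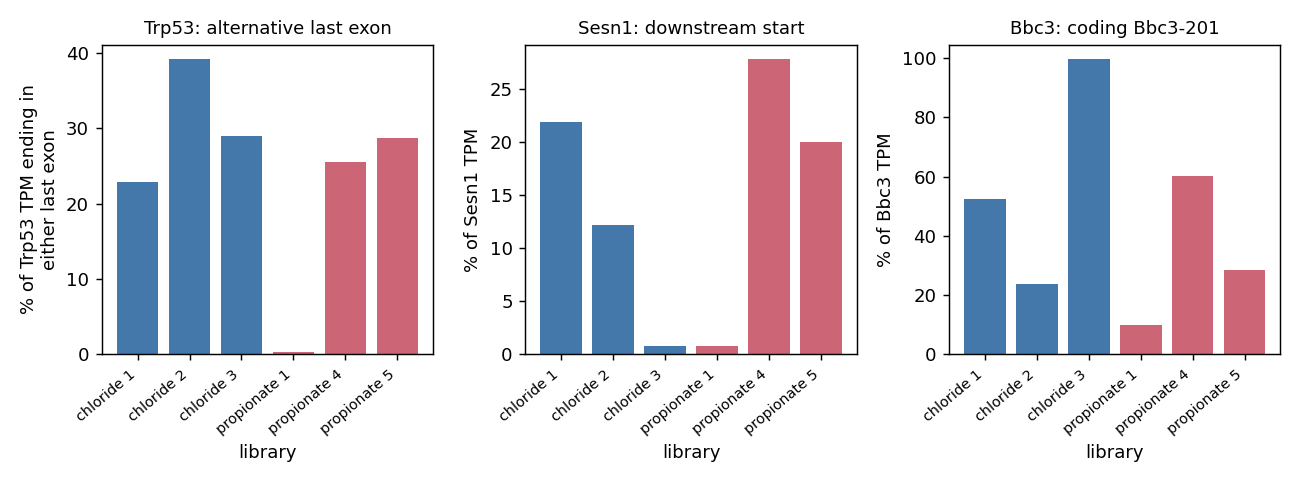
Percent of TPM in each library (blue chloride, red propionate) taken by the alternative Trp53 last exon, by Sesn1-201 from the downstream start and by the main coding transcript Bbc3-201. The Trp53 share is 0.29% in propionate 1, the Sesn1 share is under 1% in chloride 3 and propionate 1, and the Bbc3 share runs from 9.76% to 99.6%.

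The rest of the pathway gave the same count. A list of 101 genes in 7 groups, the 10 genes included, had 90 tested, of which 40 were higher and 50 lower by sign and 0 were called in either direction. Without the 10 genes, 33 of 81 were higher and 48 lower, with a median of -0.02. At an unadjusted p under 0.05 there was 1 higher and 1 lower, against 2.14% and 2.95% of all genes, and 4 and 6 genes had groups without overlap, to be read against 5.27% and 6.49% of all genes. The count of 2 at an unadjusted p under 0.05 became 7 with TPM as deposited and 6 with a term for the pair chloride 3 and propionate 1. The limma adjusted p of the genes outside the 10 that are named by group next was 0.915, except for Cpt1c (0.926) and Neat1 (0.996).

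Among p53 and its control genes, 8 of the 23 tested had a positive difference and 15 a negative one (median -0.03). Atr, a kinase that senses stalled replication, stood at 13.4 ± 0.61 scaled TPM under chloride and 11.6 ± 1.22 under propionate (SD, n = 3). Trp53bp1, a scaffold at DNA breaks, stood at 11.2 ± 0.80 and 10.03 ± 0.18. Both had no overlap between groups, and neither was called. Among cell cycle arrest targets, differences were positive for 7 of 10 and negative for 3 (median 0.02). Plk2, a polo-like kinase induced by p53, stood at 13.1, 13.05 and 11.5 in the chloride libraries and 14.4, 14.1 and 14.9 in the propionate libraries, a difference of 0.19 (SE 0.08, limma adjusted p = 0.915), and was the gene higher at an unadjusted p under 0.05. Btg2, an antiproliferative factor, stood at 9.38 ± 0.26 and 10.5 ± 0.56, and for both Plk2 and Btg2 the groups did not overlap. Neither passed the adjusted test.

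Among cell death targets, 6 of 14 differences were positive and 8 negative (median -0.03). Bak1, which permeabilizes mitochondria, stood at 31.1 ± 1.04 scaled TPM under chloride and 34.3 ± 2.70 under propionate, with no overlap. Pidd1, a scaffold for caspase-2, stood at 4.19 ± 0.56 and 3.48 ± 0.35. Among stress, metabolism and redox targets, 7 of 17 were positive and 10 negative (median -0.05). Gls2, a mitochondrial glutaminase, stood at 4.58 ± 0.17 and 4.06 ± 0.17, with no overlap. Cpt1c, a brain form of carnitine palmitoyltransferase, stood at 7.46 ± 1.27 and 6.43 ± 1.29. Among DNA repair targets, 3 of 10 were positive and 7 negative (median -0.04). Ercc5, an excision repair nuclease, stood at 9.95 ± 0.67 and 8.43 ± 1.06, with no overlap. Fancc, of the Fanconi anaemia core complex, stood at 20.7 ± 3.46 and 17.96 ± 1.02. No gene of these groups passed the adjusted test.

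The 3 tested noncoding RNAs tied to p53 all had negative differences (median -0.21). Lncpint, a long noncoding RNA induced by p53, stood at 21.8, 23.9 and 26.2 scaled TPM in the chloride libraries and at 17.0, 19.3 and 17.7 in the propionate libraries. All 3 chloride libraries lay above all 3 propionate libraries, with a difference of -0.39 (SE 0.09, limma adjusted p = 0.915), and Lncpint was the gene lower at an unadjusted p under 0.05. Pvt1 stood at 18.9 ± 2.09 and 16.2 ± 1.74, and Neat1, the scaffold of paraspeckles, at 20.8 ± 4.203 and 20.7 ± 5.41. Genes that p53 and p21 repress through the DREAM complex had 9 positive and 5 negative differences of 14 (median 0.02). Ccnb1 stood at 158.7 ± 4.02 and 172.7 ± 7.10 with no overlap, and Ccnb2 at 49.99 ± 2.15 and 53.7 ± 3.06, both being mitotic cyclins. None passed the adjusted test.

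**Figure D5:**
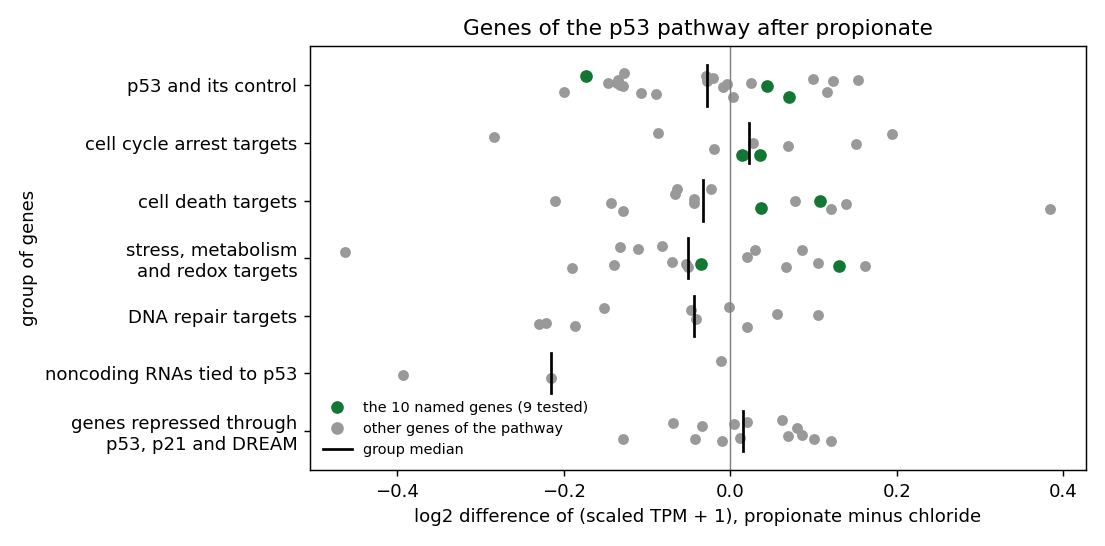
Log2 difference of (scaled TPM + 1), propionate minus chloride, of the 90 tested pathway genes in their groups (Chek1 stands in 2 groups), with the 9 measured named genes in green, the others in grey and the median of each group as a black bar. Medians lie between -0.05 and 0.02 except for the 3 noncoding RNAs at -0.21.

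Over the 6 libraries, the levels of Trp53 ran most like those of Bid (Pearson r 0.929, Spearman rho 0.886), a death agonist cut by caspase-8, Cdkn1a (r 0.915, rho 0.886) and Fdxr (r 0.813, rho 0.600), ferredoxin reductase. These are the highest of 89 pathway genes compared, on the log2 scale, over libraries that share both salts, and are given as a description. Cdkn1a ran most like Trp53, then Gtse1 (r 0.844), a p53-binding G2 protein, and Bax (r 0.828), a mitochondrial death effector. Without the 2 libraries farthest from the median of Cdkn1a, chloride 1 and propionate 1, r was 0.969 with Trp53, 0.460 with Gtse1 and -0.451 with Bax. The likeness to Gtse1 and Bax thus rests on those libraries. An r over the few libraries left, where Cdkn1a spans only 19.2 to 20.7 scaled TPM, is itself uncertain. Without the 2 farthest for Trp53, chloride 1 and chloride 2, r was 0.789 with Bid, 0.931 with Cdkn1a and 0.671 with Fdxr.

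The libraries held 9.15 to 11.3 Gb of bases counted by StringTie. The labelled cell type was checked on marker genes: 10 of 11 glioma and neural progenitor markers had a mean of at least 1 TPM (Gfap was the exception). The summed level of these markers was 3546 to 3972 scaled TPM under chloride and 3826 to 4208 under propionate. Most of that sum was Vim, at 2764 to 3164 under chloride and 3010 to 3402 under propionate. Olig1 (0.89 to 1.56), Olig2 (1.15 to 1.96) and Fabp7 (1.04 to 1.68) lay close to the limit of 1 TPM. Of 8 macrophage and microglia markers, Cd68 and Csf1r had such a mean and 4 were at 0 in all libraries, with a sum of 4.61 to 6.26 under chloride and 4.75 to 6.14 under propionate. No lymphoid, endothelial or erythroid marker reached a mean of 1 TPM over the libraries. Of 6 fibroblast and pericyte markers 3 did, Col1a1, Pdgfrb and Acta2, with sums of 176.3 to 193.4 and 167.1 to 206.3. Of 5 neuronal markers only Tubb3 did, at 73.9 to 89.9 scaled TPM over the libraries.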

How the data were processed

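Total RNA of 6 GL261 libraries was measured. Per the labels' protocols, libraries were made with a stranded kit. The build is mm10, and the tools are bcl2fastq, fastp, HISAT2 and StringTie, per the submitters' processing notes. Per the file headers, StringTie 2.1.1 gave the deposited values, which are coverage, FPKM and TPM of each transcript model in a set common to the libraries, with no counts. No source used here gives the strand setting, and Mdm4 and Cdkn1a each overlap an annotated gene on the opposite strand. Files were read with Python 3.11.15 and pandas 2.3.3. Models numbered 157296, of which 14805 were assembled; 11811 of these were joined to the reference gene of their locus that shares most exon bases, so a gene's total includes them. TPM were summed per gene and divided by 1 factor per library (the median ratio to the geometric mean: 1.09, 0.990 and 1.03 for chloride, 0.971, 0.966 and 0.967 for propionate). Genes averaging 1 TPM or more, with a transcript of 200 nt or more, were tested two-sided on log2(scaled TPM + 1) with limma 3.58.1 in R 4.3.3 (variance trend, Benjamini-Hochberg adjustment over 15557 genes, threshold 0.05). This scale understates differences of low genes. Transcripts were tested in the same way. Shares of TPM were compared by exact permutation over libraries.

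Depth limits the lowest genes most, and the files give no read counts for an interval on each value. The members, the pathway list and the tests were chosen with earlier results of these data known. Pathway genes are named where called, otherwise the pair of smallest p in each group, and all of a group with under 5 tested. Of that list, 1 symbol matched no gene. Transcripts averaging 1 TPM or more may be named, and others where a share or a switch is described. The shares of models without an exon, the exon coverage beside them and the limits of the motif search were chosen after the data were seen. Exon and coding positions come from GENCODE M21 and promoter windows from RefSeq. Alternatives were other scalings, pseudocounts, filters, model sets, variance models and sets of libraries.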

Additional observations from a re-analysis of the deposited data

How the results depend on the processing

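No gene among the 9 measured and none of the pathway list was called under any alternative run, and no transcript of the 10 genes under those run for transcripts. The sign of the members' log2 differences was less stable. TPM as deposited leave out the factors, which were higher for each chloride library (0.990 to 1.09) than for any propionate library (0.966 to 0.971). All 9 differences were lower with TPM as deposited. They became negative for Trp53 (-0.0501), Mdm2 (-0.0255), Cdkn1a (-0.057), Ccng1 (-0.0806) and Bbc3 (-0.0328). With quantile normalization Ccng1 became -0.008, and with reference transcripts alone Mdm2 became -0.3501. Mdm4, whose sign held, was -0.2948 with reference transcripts alone. In that run 1 of the 9 genes had an unadjusted p under 0.05, against 633 of 13273 genes tested. In the 4 libraries with wider transcript coverage, Trp53 was -0.0031, Cdkn1a -0.059, Bbc3 -0.1291, Phlda3 -0.0016, Gdf15 -0.0787 and Sesn1 0.1074. Leaving out 1 library at a time gave -0.1026 to 0.1616 for Trp53, -0.2525 to -0.0342 for Mdm4, -0.0424 to 0.1182 for Cdkn1a, -0.0507 to 0.0851 for Ccng1, -0.0522 to 0.1315 for Bbc3 and -0.0816 to 0.057 for Sesn1. The number of genes called among all genes was 1, and became 0 with no filter on low values (1426 at an unadjusted p under 0.05), 2 at a mean of at least 5 TPM, 7 in the 4 libraries and 1 to 3 when 1 library was left out, with 3 without propionate 1. Leaving out 1 library moved the difference in the share of Mdm2 TPM without exon 3 from 16.2 points to between 2.46 and 25.6 and that of Mdm4 without exon 6 from 5.70 to between -10.4 and 25.7, the ends being reached without propionate 4 and propionate 5 for Mdm2 and without propionate 1 and chloride 3 for Mdm4; these were chosen after seeing the data. The difference in the share of Mdm2 TPM from the upstream exon was 3.26 points, 10.6 with assembled models counted and -5.32 (without chloride 3) to 18.6 (without propionate 4) when 1 library was left out. Beyond the factors left out with TPM as deposited, the causes of these changes were not tested. No paired analysis was possible because the 2 salts share only replicate number 1. Depth limits Bbc3 and Eda2r most.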
